A study of Mus musculus with 36 samples.

Results

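Transcripts of 9 genes of B cells and of the lymphoid follicle were followed in the lungs of mice given titanium dioxide nanoparticles. They are Cd79a, Cd79b, Ms4a1, Pou2af1, Pax5, Cr2, Cxcl13, Cxcr5 and Ltb, and were found among 36799 gene names on the arrays by the RefSeq accession of their probes. All 9 passed the filter on dim probes, with 23256 genes tested in all. Where a gene had several probes, the one of highest mean signal was used.

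Each of 29 female C57BL/6 mice, 5 to 7 weeks old, received a single instillation into the trachea of a suspension of Tube TiO2NPs, a tube-shaped titanium dioxide nanomaterial. The dose was 0, 18, 54 or 162 µg, and lungs were taken 1 or 28 days later. The day 1 lungs came from 4 controls (0 µg), 3 mice given 18 µg, 3 given 54 µg and 4 given 162 µg, and the day 28 lungs from 3 controls and 4 mice of every other dose. RNA came from random sections of frozen whole lung, and the labels speak of 5 per group, more than the mice analysed here. The lung RNA was labelled with Cy5 and compared on each array with a Cy3-labelled reference pooled from 11 mouse cell lines. All values below are log2 ratios of lung over this reference, so that 1 unit is a 2-fold difference, and a change is a difference of group means on this scale. The ratios do not rank one gene's level against another's. The labels conflict on the day of 1 mouse, which was kept as replicate 1 at 162 µg and day 28.

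B cells sense antigen through a surface immunoglobulin that signals by way of the CD79A and CD79B proteins. In lymphoid tissue they gather in follicles, where stromal cells secrete CXCL13 and B cells follow it through its receptor CXCR5. Lymphotoxin beta, the product of Ltb, is made by lymphocytes and keeps such stroma in its CXCL13-secreting state. Mouse lung normally holds few organised follicles, and long-lasting inflammation is known to raise them there as inducible bronchus-associated lymphoid tissue. CXCL13 is also made in lymphoid clusters of the fat around the pleural cavity, which hold B cells.

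The arrays gave these genes a usable signal. In Cy5, 8 members were well above background on 36 of 36 arrays, and Pax5 on 33. The reference was above background on 3 of 36 arrays for Cxcl13, 4 for Pax5, 10 for Cxcr5 and 24 for Cd79a. For these the divisor of the ratio was often at background. Differences in the ratio did not always follow the lung signal. For Cxcr5, log2 Cy5 before normalization was 9.07 and 9.03 in control replicates 1 and 2 of day 1, with ratios of 2.49 and 3.35. The part of the reference channel and of normalization in such differences was not tested. Of further B cell markers, Cd22 was above background on 36 arrays and Blk on 28. The lung markers Sftpc and Ager were above background on 36 arrays. On 12 arrays the mean log2 Cy5 of a skeletal muscle list was 10.47 to 15.06, and elsewhere it did not exceed 7.94. The 12 are termed muscle arrays below. Their mice were 4 of 4 controls at day 1 against 1 of 3, 1 of 3 and 1 of 4 at 18, 54 and 162 µg, and at day 28 they were 0 of 3 controls against 1 of 4, 3 of 4 and 0 of 4.

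By limma, 0 of the 9 genes passed an adjusted p of 0.05 at any dose on either day. Mice of the same group differed widely in most of them, and the values of the B cell genes went together from mouse to mouse. The promoters of the chemokine and of the lymphotoxin gene are shown because these members define the follicle circuit and are the 2 with a motif hit. They are the 250 bases before the transcription start, from RefSeq on GRCm38.p6, and 6 of the 9 members had an entry (Cd79a, Pou2af1, Pax5, Cr2, Cxcl13 and Ltb). Capitals mark TATAAA in Cxcl13, at chr5:95956689-95956938 on the plus strand, and a kappa B match in Ltb, at chr17:35194257-35194506 on the plus strand.
Cxcl13: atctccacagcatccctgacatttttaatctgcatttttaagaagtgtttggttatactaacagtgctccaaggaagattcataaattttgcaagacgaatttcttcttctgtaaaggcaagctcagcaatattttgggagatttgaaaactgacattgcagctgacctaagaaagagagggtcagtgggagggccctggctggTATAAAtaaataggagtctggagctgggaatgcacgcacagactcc
Ltb: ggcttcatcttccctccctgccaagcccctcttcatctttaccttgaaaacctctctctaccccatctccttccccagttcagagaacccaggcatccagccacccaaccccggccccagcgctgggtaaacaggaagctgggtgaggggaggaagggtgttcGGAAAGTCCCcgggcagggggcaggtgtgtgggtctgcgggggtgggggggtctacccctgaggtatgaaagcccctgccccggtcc
The kappa B motif was searched on both strands as GGGNNTTTCC and was found in 1.41% of 32851 promoters, and among the members in Ltb alone. TATAAA, added after the Cxcl13 sequence had been seen, was found in 12.4% of promoters and among the members in Cxcl13 alone. The octamer ATTTGCAT (1.60% of promoters), the PU.1 motif GAGGAAGT (2.44%) and the EBF motif TCCCNNGGGA (0.779%) were in 0 of the 6, which says only that these letters are not in these windows. No motif overlapped another in the members.

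Cd79a and Cd79b encode the signalling chains of the B cell receptor, and Ms4a1 encodes CD20, a surface protein of mature B cells. Cd79b at day 1 was 0.91, 1.78, 0.82 and 0.70 in the controls, 1.59, 1.58 and 0.59 at 18 µg, 0.90, 2.49 and 1.57 at 54 µg, and 0.90, 1.16, 1.31 and 0.49 at 162 µg. The groups overlapped, and the highest mouse was replicate 2 at 54 µg. At day 28 Cd79b was 1.23, 1.16 and 1.31 in the controls, 0.91, 1.38, 1.30 and 1.66 at 18 µg, 0.87, 0.75, 1.20 and 1.61 at 54 µg, and 1.34, 1.53, 0.58 and 1.21 at 162 µg. The control mice of that day lay close together and inside the range of every treated group. The largest difference from control was 0.60 at 54 µg and day 1 (95% interval -0.07 to 1.28, limma adjusted p = 0.690). Without the muscle arrays, in a fit with 1 control mouse left at day 1, it was 0.0083.

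Ms4a1 was 0.42, 2.07, 0.37 and 0.57 in the day 1 controls, 0.89, 1.07 and 0.35 at 18 µg, 0.17, 2.03 and 1.09 at 54 µg, and 0.52, 0.33, 1.27 and 0.09 at 162 µg. A single mouse stood above the others in the control, 54 µg and 162 µg groups. At day 28 it was 0.33, 0.28 and 0.85 in the controls, 0.44, 0.71, 0.71 and 1.64 at 18 µg, 0.37, 0.19, 0.81 and 0.86 at 54 µg, and 0.69, 0.56, -0.07 and 0.34 at 162 µg. Here replicate 4 at 18 µg was the high one. The means differed from control by -0.30 at 162 µg and day 1 (adjusted p = 0.800) and by 0.39 at 18 µg and day 28 (adjusted p = 0.908). Cd79a ranged over 1.10 to 2.96 in the day 1 controls and over 1.65 to 1.68 in the day 28 controls, and its treated groups spanned 0.85 to 2.87. Its changes lay between -0.17 and 0.27.

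Pou2af1 encodes the B cell coactivator OCA-B (BOB.1), which works with octamer-binding factors. At day 1 it was -1.93, 0.02, -2.35 and -2.19 in the controls, -1.99, -1.66 and -2.21 at 18 µg, -2.16, -0.33 and -1.72 at 54 µg, and -1.77, -1.75, -0.70 and -2.10 at 162 µg. The 3 high values belonged to the mice that were high for Ms4a1. At day 28 it was -2.12, -2.14 and -1.98 in the controls, -1.91, -1.85, -2.03 and -0.90 at 18 µg, -1.86, -2.03, -1.72 and -1.76 at 54 µg, and -1.63, -1.44, -1.91 and -1.93 at 162 µg. At 162 µg and day 28 all 4 mice lay above the 3 controls (change 0.36, 95% interval -0.55 to 1.26, limma adjusted p = 1.00). It was the 1 member of 9 without overlap in that comparison. There 0.628% of all genes were called, which is another measure, and the share of all genes without overlap was not computed. Pax5, the transcription factor of B cell commitment, stayed within 0.32 to 1.07 in all 29 mice, with changes of -0.18 to 0.26, and at 54 µg and day 28 its lung signal was above background on 2 of 5 arrays. Cr2 encodes complement receptor 2, found on B cells and follicular dendritic cells, and lay between 1.50 and 3.48. Its largest change was 0.45 at 54 µg and day 1 (95% interval -0.26 to 1.17, adjusted p = 0.746).

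Cxcl13, the follicle chemokine, varied most of the 9. At day 1 it was 1.39, 6.09, 0.61 and 2.50 in the controls, 1.09, 1.46 and 2.93 at 18 µg, 0.85, 5.58 and 1.08 at 54 µg, and 2.62, 3.12, 4.46 and 2.97 at 162 µg. The 162 µg mice were all at 2.62 or more, yet the highest mouse of the day was a control. At day 28 it was 0.96, 2.22 and 0.93 in the controls, 3.16, 0.66, 0.88 and 4.63 at 18 µg, 2.58, 1.55, 3.04 and 0.77 at 54 µg, and 2.19, 1.98, 1.38 and 1.14 at 162 µg. All groups overlapped their controls. From the lowest to the highest mouse the ratio spanned 44.6-fold, and log2 Cy5 ran from 6.67 to 12.18. The change was 0.65 at 162 µg and day 1 (95% interval -1.50 to 2.79, adjusted p = 0.858) and 0.96 at 18 µg and day 28 (-1.36 to 3.28, adjusted p = 0.921). Single mice set these values: at 54 µg and day 1 the change was -0.14, but 1.00 without control replicate 2 and -1.68 without 54 µg replicate 2. Without the muscle arrays, in a fit with 1 control mouse left at day 1, it was 2.47 at 162 µg (adjusted p = 0.238). Its receptor gene Cxcr5 lay between 1.87 and 3.61, and its changes between -0.12 and 0.44.

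Ltb at day 1 was 1.30, 1.70, 1.27 and 0.84 in the controls, 1.73, 1.46 and 0.92 at 18 µg, 1.17, 2.29 and 1.46 at 54 µg, and 1.36, 1.07, 1.02 and 1.21 at 162 µg. All 4 groups overlapped. At day 28 it was 1.81, 1.48 and 1.69 in the controls, 1.01, 1.82, 1.48 and 1.76 at 18 µg, 1.30, 0.73, 1.35 and 1.45 at 54 µg, and 1.66, 1.70, 1.24 and 1.04 at 162 µg. At 54 µg and day 28 all 4 mice lay below the 3 controls (change -0.46, 95% interval -0.98 to 0.07, adjusted p = 0.749). In this comparison 0% of all genes were called, which is another measure, and the share of all genes without overlap was not computed. Single arrays did overlap: those of control replicate 1 gave 2.30 and 1.33, and those of 54 µg replicate 1 gave 1.67 and 0.93. Of the mice given 54 µg 3 of 4 had a muscle array, against 0 of 3 controls. Without those arrays, in a fit with 1 mouse left at 54 µg, the change was -0.21. Within 4 slides the change was -0.63 to -0.14. The change at 54 µg differed between the days by -0.82 (day 28 minus day 1, unadjusted p = 0.0317, adjusted p = 0.489).

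**Figure D1:**
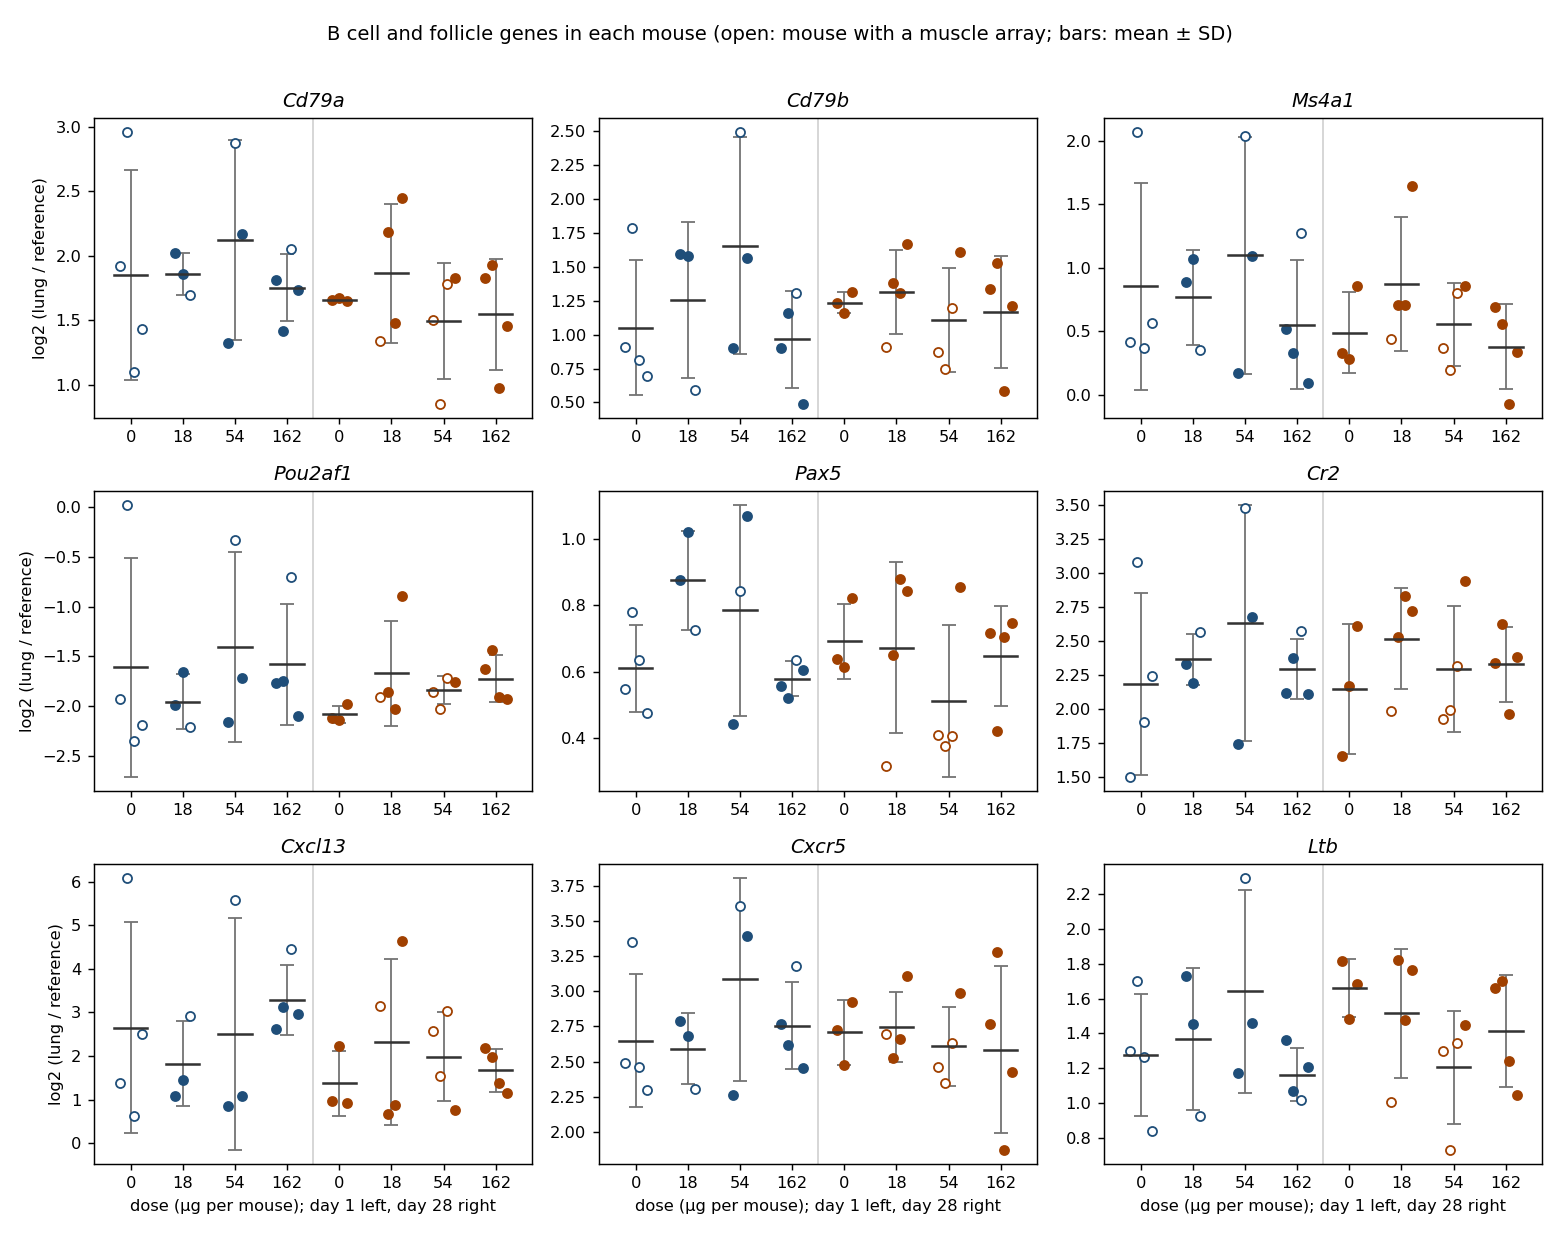
Each point is 1 mouse, plotted as the log2 ratio of lung over reference (y axis, a separate scale per gene) against dose in µg, with day 1 in blue and day 28 in brown. Open points are mice with a muscle array, and bars are mean ± SD. Cxcl13 ran from 0.61 to 6.09, and its highest mouse was a control.

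Against controls of the same day, 0 of 9 members passed an adjusted p of 0.05 in any of the 6 comparisons. The share of all tested genes that passed was 1.69% at 162 µg and day 1, 0.0516% at 54 µg and day 1, 0% at 18 µg and day 1, 0.628% at 162 µg and day 28, 0% at 54 µg and day 28 and 0% at 18 µg and day 28, so a count of 0 among 9 is near the background. At an unadjusted p of 0.05 the count was also 0 in these 6, by limma. The median change of the 9 was -0.03, 0.27 and 0.0033 at 162, 54 and 18 µg on day 1, against 0.0065, 0.00064 and -0.00099 over all genes. On day 28 it was -0.07, -0.10 and 0.20, against 0.00040, -0.02 and -0.02. At 54 µg and day 1, 8 of 9 members had a higher mean than the controls, without any passing. Without the muscle arrays, which left 1 control mouse, Cd79a (-0.40), Pou2af1 (-0.34) and Ltb (-0.12) were below control, and without 54 µg replicate 2 Cd79a (-0.11), Ms4a1 (-0.22) and Pou2af1 (-0.33) were. The intervals of Pax5, the least variable member and weak in signal, reached from -0.48 to 0.56 over the 6 comparisons. Those of Cxcl13 reached from -3.14 to 3.28.

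**Figure D2:**
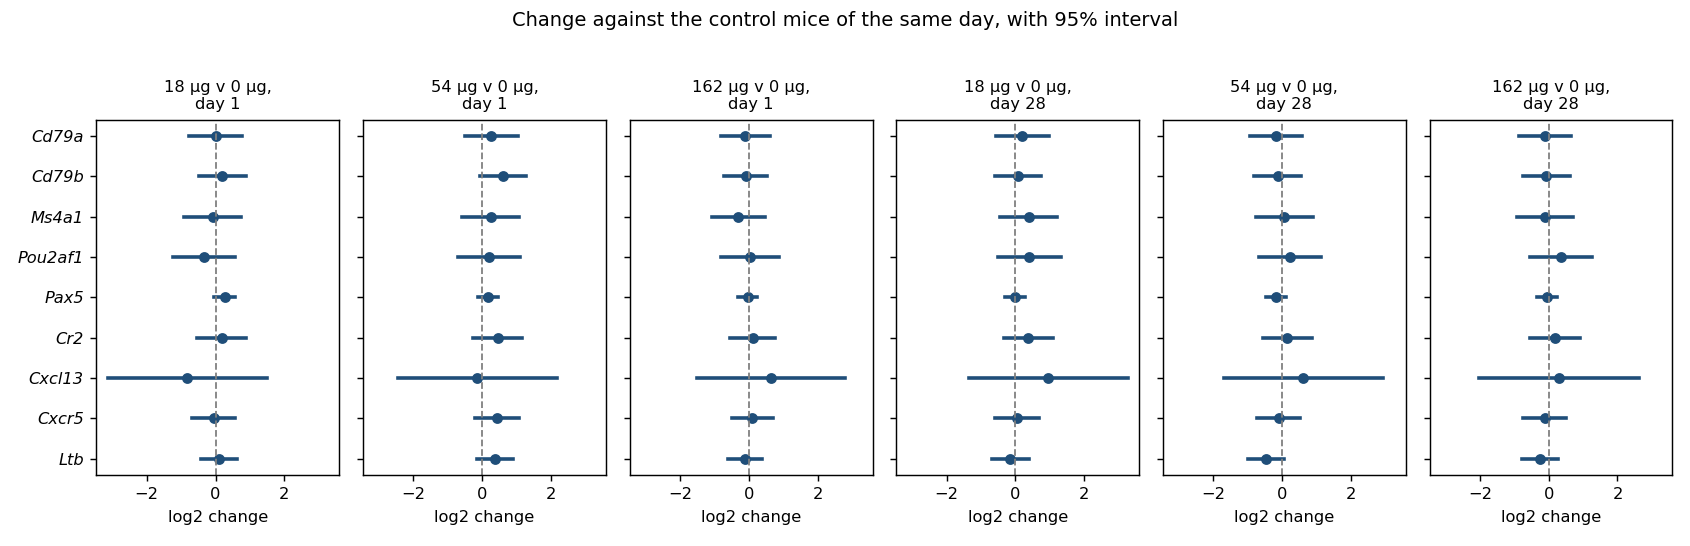
Points are the change of each gene against the control mice of its day and lines are 95% intervals (x axis, log2 units), with a panel per dose and day. Every interval crosses 0, and those of Cxcl13 are the widest, reaching from -3.14 to 1.49 at 18 µg and day 1.

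Comparing doses with each other, 0 of 9 members passed for 162 against 54 µg at day 1 (0.0043% of all genes), for 54 against 18 µg at day 1 (0.0172%), for 162 against 54 µg at day 28 (1.01%) or for 54 against 18 µg at day 28 (0%). Cd79b was lower at 162 than at 54 µg on day 1 by 0.69 at an unadjusted p of 0.0459, with an adjusted p of 1.00. The change at day 28 differed from that at day 1 for 0 of 9 members at 162 µg (0.0258%), 54 µg (0%) and 18 µg (0%). The controls of the 2 days differed in 0 of 9 (0%). Over these 126 tests of members 2 had an unadjusted p under 0.05, and the lowest adjusted p was 0.489. When the 8 groups were ordered by mean for each gene, 0 of 63 neighbouring pairs differed by limma at an unadjusted threshold of 0.05. For Cxcl13 the order ran from 3.29 at 162 µg and day 1 through 2.65 in the day 1 controls down to 1.37 in the day 28 controls. Slide by slide, over the 5 slides with mice of both, the Cxcl13 difference between 162 µg and control at day 1 ran from -2.97 to 3.84 and was above 0 in 3.

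The within-group SD of Cxcl13 was 1.57, 7.72 times the median of 0.203 over all tested genes and at their percentile 99.3. It was 0.61 for Pou2af1 (percentile 95.3), 0.56 for Ms4a1 (94.4), 0.51 for Cd79a (93.3), 0.48 for Cr2 (92.4), 0.45 for Cd79b (91.3), 0.42 for Cxcr5 (89.7) and 0.35 for Ltb (83.8). Pax5 was close to the median gene, with 0.19 (44.2). Its signal was weak, with the reference above background on 4 of 36 arrays, so a small SD need not mean a steady transcript. Part of the spread was seen within a mouse. In the 7 mice on 2 arrays the 2 Cxcl13 values differed by 0.32 to 1.89, median 1.05, the largest being 0.44 and 2.34 for control replicate 1 of day 1, whose second array was a muscle array. The median difference was 0.41 for Pou2af1, 0.36 for Ms4a1, 0.52 for Cd79b and 0.51 for Ltb. In bulk lung RNA, a mouse with fewer B cells and a mouse with less RNA of these genes per cell cannot be told apart.

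The same few mice were high for several members. Cxcl13 was highest in control replicate 2 of day 1 (6.09), 54 µg replicate 2 of day 1 (5.58), 18 µg replicate 4 of day 28 (4.63) and 162 µg replicate 3 of day 1 (4.46), ahead of 3.16 in the next mouse. Pou2af1 and Ms4a1 had the same 4 mice at ranks 1 to 4 of 29. In Cd79a they ranked 1, 2, 3 and 6, in Cd79b 2, 1, 3 and 12, in Cr2 2, 1, 5 and 9, and in Cxcr5 3, 1, 6 and 5. They did not all rank high in Ltb (7, 1, 4 and 25) or Pax5 (9, 7, 6 and 17). The 4 mice came from 4 dose and day groups, a control group among them. The mice of rank 1, 2 and 4 in Cxcl13 had muscle arrays, and 18 µg replicate 4 had none.

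Across the 29 mice, deviations from the group mean were correlated between members. Of 36 pairs, 26 passed an adjusted p of 0.05 (permutation within groups, two-sided, adjusted over the 36), with a median r of 0.68. The share of all gene pairs that would pass was not computed. The closest pair was Ms4a1 and Pou2af1 (r = 0.93, Spearman rho = 0.86, permutation p = 2e-05 for both, adjusted 9e-05), and r was 0.89 without the 2 mice farthest out in Ms4a1. Cd79b and Ms4a1 had r = 0.89, rho = 0.89 and, without the 2 farthest, 0.85. Within the scan sessions that held 13 and 9 whole mice, Ms4a1 and Pou2af1 had r = 0.97 and 0.93, and Pou2af1 and Cxcl13 had 0.87 and 0.58. The 21 pairs among the 7 genes other than Cxcl13 and Pax5 had r from 0.50 to 0.93.

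Cxcl13 and Pou2af1 had r = 0.82 over 29 mice (permutation p = 0.00222, adjusted 0.005; rho = 0.61, p = 0.00801, adjusted 0.0144; r = 0.66 without the 2 farthest), with 0.88 at day 1 and 0.67 at day 28. Over the 25 mice other than the 4 above r was 0.054. These 4 were picked as the highest in Cxcl13 and are the highest in Pou2af1 too, so that leaving them out can lower r by construction. They are also the highest 4 in Ms4a1, whose r with Pou2af1 was 0.76 over the 25. There the 8 pairs with Cxcl13 had r from -0.59 to 0.054 (median -0.17). The 21 pairs without Cxcl13 and Pax5 had 0.20 to 0.84 (median 0.66). The difference between these sets of pairs was not tested. Cxcl13 and Cr2 had r = 0.89 at day 1 and -0.21 at day 28, a difference that was not tested. By the same permutation test of r over 29 mice, Cxcl13 also passed with Ms4a1 (adjusted p = 0.0161) and Cd79a (0.0323). It did not pass with Cxcr5 (0.0545), Cr2 (0.0877), Cd79b (0.0946), Ltb (0.276) or Pax5 (0.971). By rho only its pair with Pou2af1 passed.

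**Figure D3:**
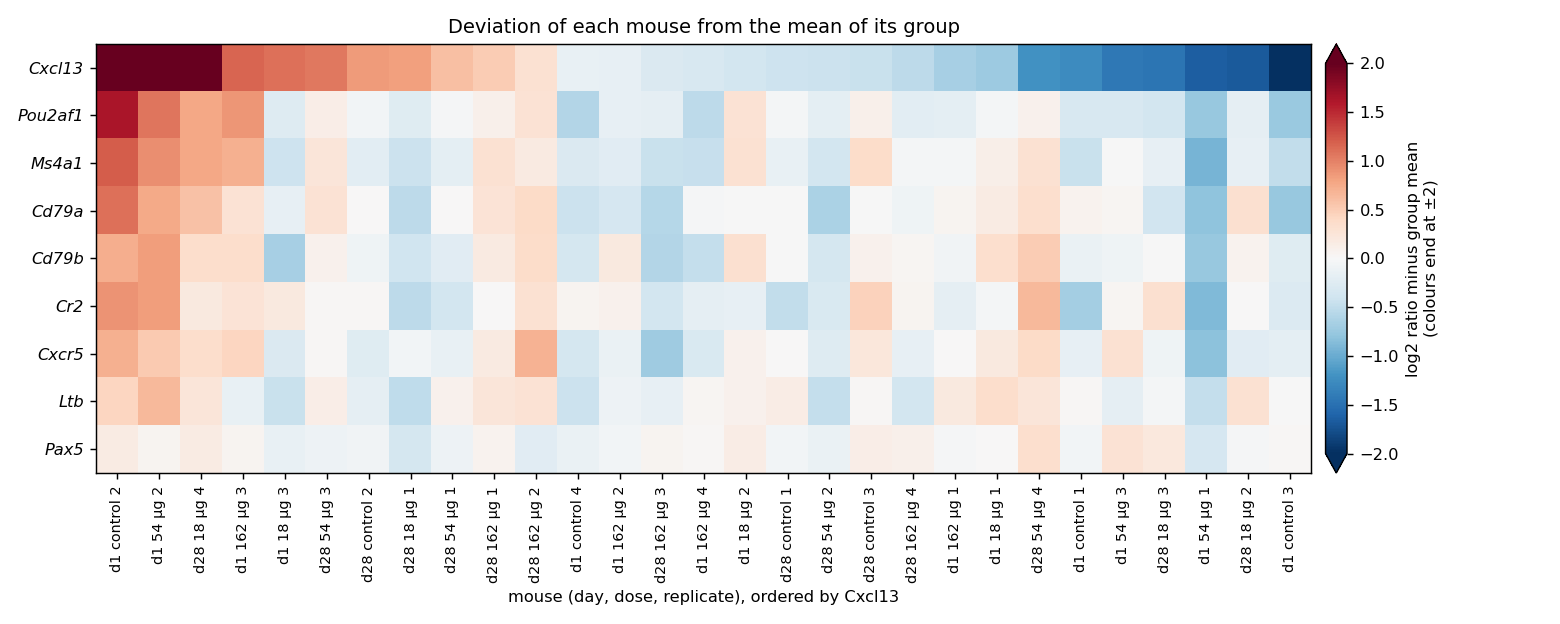
Colours show each mouse's log2 ratio minus its group mean for the 9 genes (rows), with the 29 mice (columns) ordered by Cxcl13. The 4 columns at the left are the mice with Cxcl13 of 4.46 to 6.09, in which Pou2af1, Ms4a1 and Cd79a are also above their group means.

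Fat and muscle transcripts went with Cxcl13. A list of 8 adipocyte genes, chosen after its values were seen, had mean log2 ratios of 0.79 to 6.28 in the 29 mice, and the 4 high mice ranked 1, 6, 3 and 4 of 29 in it (6.28, 5.15, 5.81 and 5.58). Its deviations followed those of Cxcl13 (r = 0.74, rho = 0.68, r = 0.74 without the 2 farthest mice), which is given with no test. Within the 2 scan sessions r was 0.66 and 0.91, and over the 25 mice other than the 4 high ones it was 0.57. The median change of the list against control was -1.30, -1.78 and -1.34 at 162, 54 and 18 µg on day 1 and -0.21, 1.39 and 2.22 on day 28, with 0 of 7 genes called. The skeletal muscle list followed Cxcl13 with r = 0.58 (permutation p = 0.00458, adjusted 0.0275 over the 12 relations computed; rho = 0.71, p = 0.00027, adjusted 0.0027; r = 0.58 without the 2 farthest mice). Within the sessions it was 0.51 and 0.49, and over the 25 mice other than the 4 high ones 0.79. Of 6 relations of the muscle list to members this was the 1 that passed over the 29 mice. With Cd79b the list had r = -0.14 over the 29 mice, 0.14 at day 1 and -0.66 at day 28, and with Ltb -0.31, -0.07 and -0.63. In the session of 9 mice both were at -0.76, and in that of 13 mice at 0.01 and -0.25. These differences between days and sessions were not tested. Of the adipocyte genes, Adipoq was above background on 32 of 36 arrays and ranged from 0.06 to 7.08, Fabp4 from 1.84 to 8.74. Of lymph node venule and stroma markers Glycam1 was above background on 6 of 36 arrays, Madcam1 on 35, Chst4 on 36 and Ccl19 on 36. Of thymus markers Rag1 was above background on 3 arrays, Rag2 on 1, Ptcra on 3, Prss16 on 4 and Foxn1 on 3, and Dntt on 36. With the adipocyte list as covariate the Cxcl13 change at 18 µg and day 28 was -0.32 in place of 0.96. The part of fat or muscle in the spread of Cxcl13 was not tested.

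**Figure D4:**
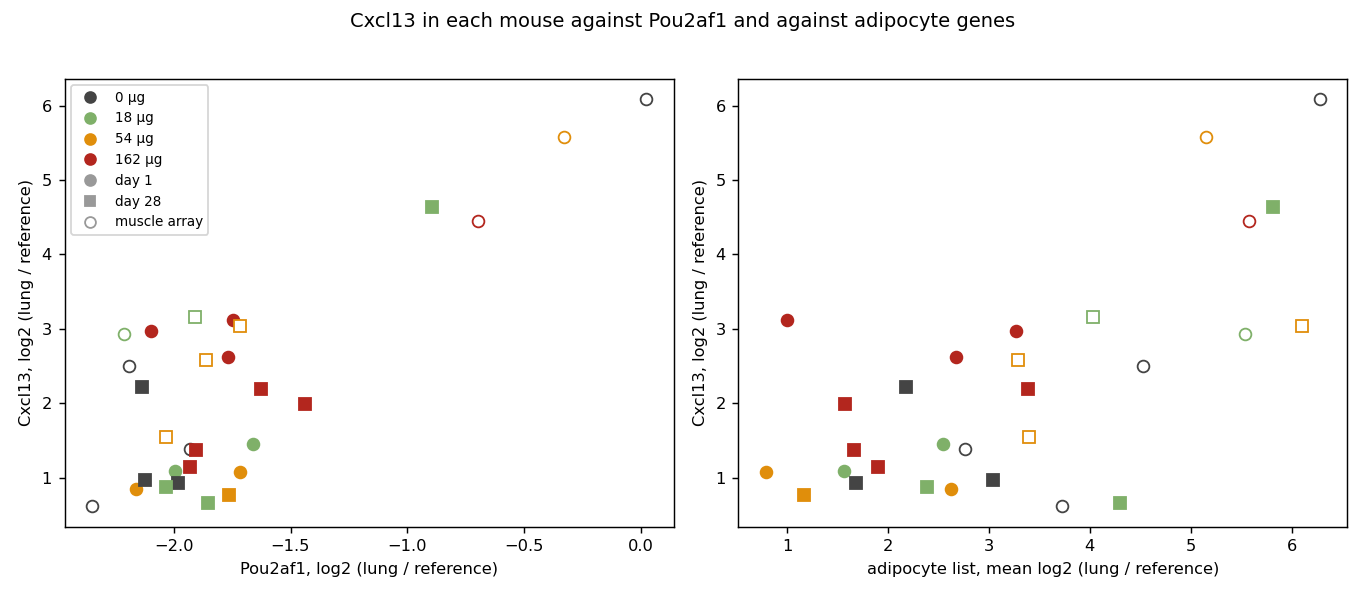
Both panels plot Cxcl13 of each mouse (y axis, log2 ratio) against Pou2af1 (left) and the mean of the adipocyte list (right), coloured by dose, with circles for day 1, squares for day 28 and open symbols for muscle arrays. The 4 mice with Cxcl13 of 4.46 to 6.09 are also the 4 highest in Pou2af1.

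The genes most like 4 of the members over the 29 mice were named by rule. For Ms4a1 they were Tnfrsf13c, the receptor of the survival factor BAFF (r = 0.92), Il5ra, the interleukin-5 receptor chain (0.91), Cd37, a B cell tetraspanin (0.90), Bank1 (0.89) and Siglecg, an inhibitory lectin of B cells (0.86). For Cd79a they were Map4k1 (0.88), Tnfrsf13c (0.85), Cd37 (0.85), Siglecg (0.84) and Spib (0.81). For Cxcl13 they were Cfp, which encodes properdin of the complement system (0.94), Emilin2 (0.90), Recql4 (0.89), Cd5l, a secreted macrophage protein (0.88), and Igf1 (0.88). By deviations from group means they were Cd5l (0.95), Vsig4, a complement receptor of tissue macrophages (0.94), Cfp (0.94), Cd209g (0.94) and Emilin2 (0.94). Cd5l was 6.12, 5.38, 3.66 and 4.10 in the 4 mice in the order of their Cxcl13. Vsig4 was 5.80, 3.90, 3.13 and 2.73 in them. For Ltb the most alike were Ptprcap, a CD45-associated protein of lymphocytes (0.89), Rgs14 (0.82), Cnp (0.77), Arhgdib (0.77) and Fcmr (0.77). The 2 measures named 24 genes for these members, and 0 of 24 passed in any of the 6 comparisons with control, where 0% to 1.69% of all genes passed. By limma the unadjusted p was under 0.05 for 2 at 54 µg and day 1 and 1 at 162 µg and day 28. The 24 were picked in these same mice for likeness to members that were not called, so this count is no separate test.

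Other genes of the same cells and tissue were read from lists. Of 23 further B cell identity and receptor signalling genes tested, such as Blnk and Ebf1, 0 passed by limma in the 6 comparisons, with 0 to 5 at an unadjusted p under 0.05. Their median change ran from -0.10 at 54 µg and day 28 to 0.26 at 54 µg and day 1. Of 11 plasma cell and germinal centre genes 0 passed (median -0.08 to 0.14, 0 to 1 at an unadjusted p under 0.05), and of 18 T cell genes 0 passed (median -0.14 to 0.27, 0 to 5 at an unadjusted p under 0.05). In the lists of thymus (2 genes tested), lung structure (12), red blood cells (5), squamous epithelium (11), mesothelium (6) and skeletal muscle (14) also 0 passed by limma. At an unadjusted p under 0.05 there were 12 of 14 muscle and 10 of 11 squamous genes at 54 µg and day 28, at most 3 of a list otherwise. The within-group SD of the list mean was 0.23 for B cell, 0.20 for plasma cell and 0.18 for T cell genes.

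Some genes of lymphoid organisation and stroma rose at 162 µg. Of 23 lymphoid tissue organisation genes 4 rose and 0 fell at day 1 (median 0.26), where 1.69% of all genes passed. Of 10 follicular dendritic and reticular stroma genes 3 rose and 0 fell there (median 0.43). The lists were chosen with earlier results of these data known, so these counts are not an independent test against that share. Ch25h, whose enzyme makes the precursor of an oxysterol that guides B cells, was 1.42, 0.84, 1.48 and 1.10 in the day 1 controls and 3.26, 3.03, 2.23 and 3.26 at 162 µg. The groups did not overlap, and Ch25h rose by 1.73 (3.33-fold, SE 0.25, adjusted p = 0.00028). It rose by 1.48 at 54 µg and day 1 (adjusted p = 0.029), the 1 stroma gene called there, and by 1.39 at 162 µg and day 28 (adjusted p = 0.00993). The call at 162 µg and day 1 held in all 25 alternatives run (adjusted p at most 0.0498). That at 162 µg and day 28 was lost without control replicate 1 or 2 or without 162 µg replicate 2 (adjusted p up to 0.111), and that at 54 µg in 11 of 24 alternatives (adjusted p up to 0.677), among them those without control replicate 1, 2 or 4 or 54 µg replicate 2 or 3.

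Of the others at 162 µg and day 1, Icos, a costimulatory receptor of T cells, rose by 0.90 (adjusted p = 0.0136), Tnf by 0.70 (0.0146), Relb, the NF-kappa B subunit downstream of the lymphotoxin receptor, by 0.61 (0.0384), Fcgr2b, an inhibitory Fc receptor of B cells, macrophages and follicular dendritic cells, by 0.80 (0.0175) and Pdpn, the podoplanin of reticular stroma and type I alveolar cells, by 1.12 (0.039). Icos was 1.76, 2.47, 1.50 and 2.04 against 1.11, 0.72, 1.12 and 1.21 in controls. Tnfsf13b, the gene of BAFF, was the fourth organisation gene to pass (0.90, adjusted p = 0.0436) and is named outside the rule, after its values were seen. Among 14 monocyte and macrophage genes Cd14 rose at 162 µg and day 1 (0.99, adjusted p = 0.039) and Cd68 at 162 µg and day 28 (0.80, adjusted p = 0.0347). Icos at 162 µg and day 28 was higher by 0.89 with an adjusted p of 0.0551.

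These calls other than those of Ch25h depended on the processing and on single mice. All 8 were lost in a fit of only the 2 groups compared. Under median centring Relb, Tnfsf13b, Icos, Pdpn and Cd14 lost theirs, with the deposited values Tnf, Relb, Tnfsf13b, Pdpn and Cd14, and with normexp at offset 0 Relb and Tnfsf13b. The adjusted p in parentheses below is the highest over all alternatives run. At day 1 that of Tnf was lost without control replicate 1 or 162 µg replicate 1 or 2 (0.152), that of Icos without control replicate 2 or 162 µg replicate 2 or 4 (0.191) and that of Fcgr2b without replicate 1 or 4 of either group (0.248). Those of Pdpn, Tnfsf13b and Cd14 were lost without replicate 1, 2 or 4 of either group (0.242, 0.320 and 0.336), and that of Relb without these or control replicate 3 (0.372). The call of Cd68 at day 28 was lost without any of the 3 controls or 162 µg replicate 1 or 2 (0.175). Without the muscle arrays, which left 1 control and 3 mice at 162 µg on day 1, the calls of Icos, Tnf, Relb, Tnfsf13b and Pdpn were lost, with changes of 0.87, 0.82, 0.35, 0.54 and 0.64 in place of 0.90, 0.70, 0.61, 0.90 and 1.12. No direction turned under any alternative.

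**Figure D5:**
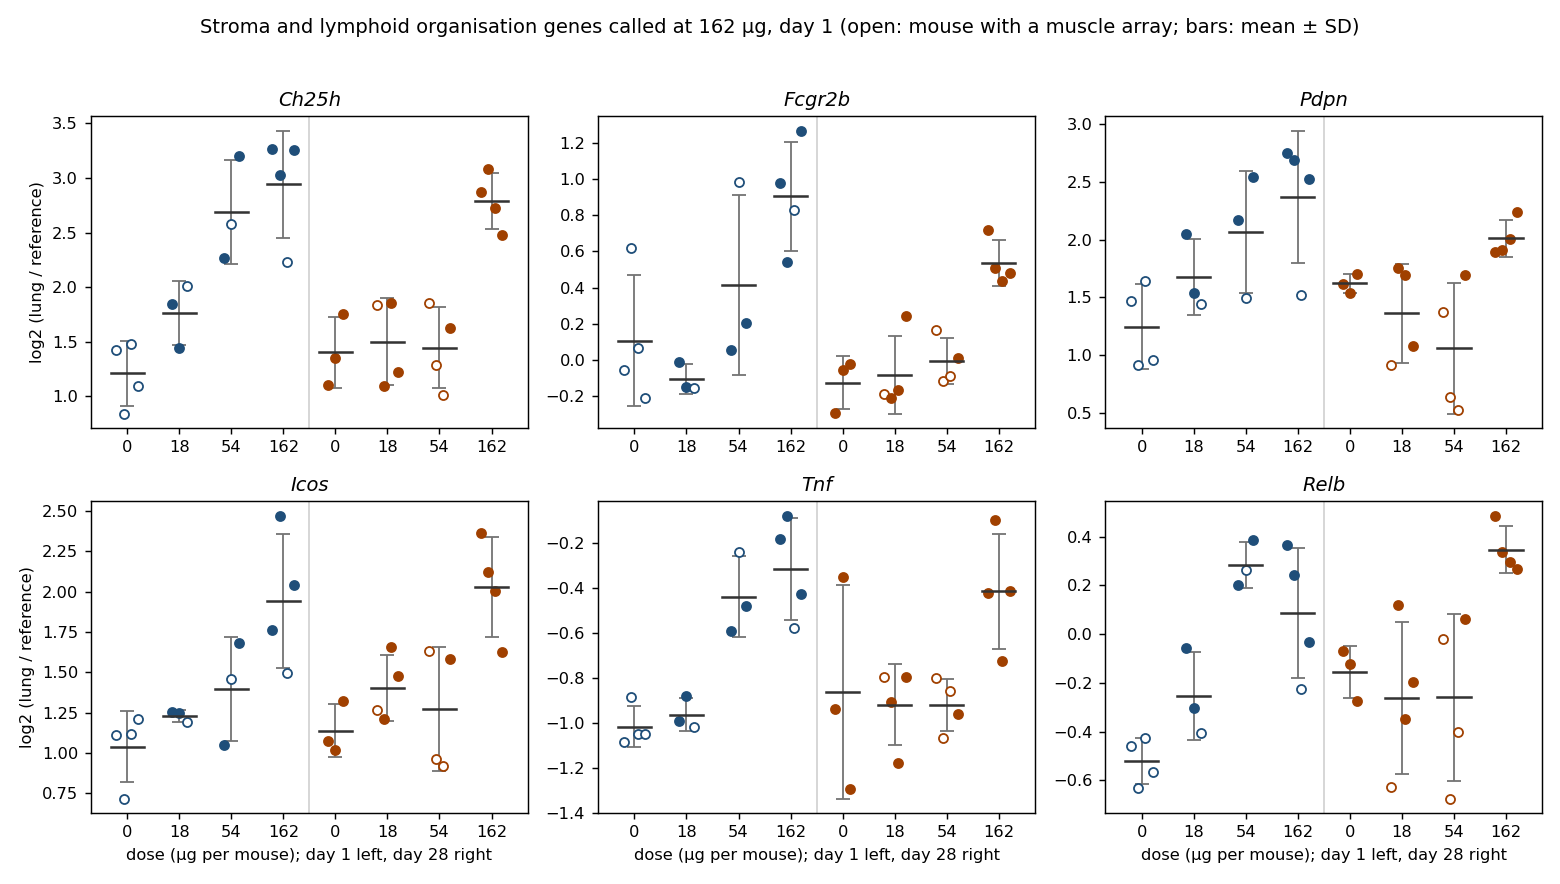
Each point is 1 mouse for the 6 stroma and organisation genes named by rule, as the log2 ratio of lung over reference (y axis, a separate scale per gene) against dose in µg, day 1 in blue and day 28 in brown, with mean ± SD and open points for muscle arrays. In Ch25h the 162 µg mice of day 28 (2.48 to 3.08) lie above all 3 controls of that day (1.11 to 1.75).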

How the data were processed

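Lung RNA of 29 mice was measured on 36 two-colour Agilent arrays. The deposited scanner files, made with Agilent Feature Extraction 11.0.1.1 per the file headers, hold spot and background intensities of both dyes and a LogRatio on the log10 scale. The deposited values of the series are log2 ratios whose normalization is not given in the sources used here, and across probes they had r = 0.986 to 0.997 with the ratios computed here.

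Median intensities (the files give no mean spot intensity) were corrected with normexp (offset 50) and normalized by loess in R 4.3.3 with limma 3.58.1, and read with version 1.17.8 of data.table. For 7 mice 2 arrays were averaged. Of 55681 probes 28026 were named by RefSeq accession. The filter kept genes whose Cy5 signal was well above background on all arrays of 3 or more mice in some group. The limma fit took a mean for each dose and day over the 29 animals (21 residual degrees of freedom) and was two-sided, with Benjamini-Hochberg adjustment over 23256 genes. Correlations used 100000 permutations of mice within groups. On each array 48.6% to 62.2% of probes were above background and 0 spots were saturated, and the number of mice limits the precision. The limma p-values set a difference of means against the spread between these mice, pooled over the 8 groups. This spread also holds differences between arrays.

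The members and lists were chosen with earlier results of these data known. The adipocyte and mesothelium lists, TATAAA and the 4 mice set apart were chosen after their values were seen. Named list genes are up to 3 called genes of a list with the lowest adjusted p, and like genes are the 5 of highest correlation with Cd79a, Ms4a1, Cxcl13 and Ltb, over log2 ratios and over deviations. Alternatives covered background correction, normalization, filter, probe choice, slide, scan session, muscle arrays, list covariates, array weights, samples in the fit, the mouse with conflicting labels and each mouse left out. The scripts were tested on simulated data.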

Additional observations from a re-analysis of the deposited data

Results flagged for a closer look

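In groups of 4 mice the highest or lowest value was set against the nearest one. Of 45 such group and gene combinations 4 had a mouse far from the others, and chance alone flags about 5% of such groups. Ms4a1 was 2.07 in control replicate 2 of day 1, with the nearest control at 0.57. Pou2af1 was -0.90 in 18 µg replicate 4 of day 28, with the nearest mouse at -1.85. Both mice are among the 4 of highest Cxcl13. Pax5 was 0.86 in 54 µg replicate 4 of day 28, against 0.41 in the nearest mouse, and it was the only mouse of that group without a muscle array. Pax5 was 0.42 in 162 µg replicate 2 of day 28, below the nearest mouse at 0.70.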

How the results depend on the processing

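The count of members called stayed at 0 in each of the 6 comparisons with control under all 25 or 26 settings run, the main one included. The lowest adjusted p of any member under any of them was 0.205, 0.376 and 0.203 at 162, 54 and 18 µg on day 1 and 0.411, 0.202 and 0.664 on day 28. At an unadjusted p of 0.05 at most 5 of 9 members passed in any of these settings, at 54 µg and day 1.  Of the single values, that of Cxcl13 moved furthest: 162 µg at day 1 gave -0.03 without control replicate 3, and 54 µg at day 28 gave -0.80 with muscle and squamous covariates, against 0.61, and 18 µg at day 28 gave -0.32 with the adipocyte list as covariate and 0.19 without 18 µg replicate 4, against 0.96. The adipocyte covariate was added after the data were seen. With the scanner's processed signals the Pax5 change at 18 µg and day 1 was 1.28 against 0.26. That of Cxcr5 at 162 µg and day 28 was -1.01 against -0.12. The cause of these moves was not tested. Without the muscle arrays 1 mouse was left in the day 1 control group and 1 at 54 µg on day 28, each assumed to vary like the other groups. No paired analysis was possible because the labels tie no mouse to one of another group. Signal over background limits Pax5 most, whose lung signal was above it on 33 of 36 arrays.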
